A study of Mus musculus with 2 samples.

Results

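Cycling cells were followed in droplet single-cell RNA counts of mouse liver nonparenchymal cells, which are left in the supernatant when a liver cell suspension is spun at low speed to pellet hepatocytes. A cell barcode counted as cycling when it held at least 3 UMIs (unique molecular identifiers, 1 per captured RNA molecule) of Mki67, Top2a, Cdk1 and Birc5 together. Of 10000 barcodes, 9146 had at least 500 UMIs and at most 20% mitochondrial UMIs, and 404 of these 9146 were cycling. The yap1 library held 199 cycling barcodes among 4253 that passed, and the WT library 205 among 4893.

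The yap1 library came from mice with floxed Yap1 alleles and Lyz2-driven Cre, active in macrophages, monocytes and neutrophils, and the WT library from wild-type mice. Both groups were C57BL/6, both had been given carbon tetrachloride (CCl4) 4 times, a hepatocyte toxin used to bring about liver fibrosis, and each library was a sample from 3 mice per the labels. The age of the mice, the time after the last dose, and whether the wild-type mice carried floxed alleles or Cre are not given in the sources used here. With 1 library per genotype no difference has a replicate check, no p-value is given, and every 95% interval covers counting error only.

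A dividing cell copies its DNA in S phase, passes a gap phase (G2) and separates its chromosomes in mitosis (M). Genes of DNA copying peak in S phase and genes of the mitotic machinery in G2/M, so proliferating cells of unrelated lineages share these transcripts. In the injured liver both resident cells, such as the Kupffer cells that line the sinusoids, and newly arrived blood cells can divide. Mki67 encodes a protein that coats mitotic chromosomes, Top2a the topoisomerase that untangles copied DNA, Cdk1 the kinase that drives entry into mitosis, and Birc5 (survivin) a subunit of the complex that corrects chromosome attachment.

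The 4 genes select cells jointly, so the letters before their start sites are shown for what they share and where they differ. Each line below is the 250 bases before the RefSeq transcription start on GRCm38.p6, read 5′ to 3′ on the gene's own strand, with 2 motifs of cell-cycle promoters in capitals. These are CCAAT (the CCAAT box) and TTTGAA or TTCGAA (the cell-cycle homology region, CHR), searched on both strands, so that ATTGG and TTCAAA mark the opposite strand.
Mki67: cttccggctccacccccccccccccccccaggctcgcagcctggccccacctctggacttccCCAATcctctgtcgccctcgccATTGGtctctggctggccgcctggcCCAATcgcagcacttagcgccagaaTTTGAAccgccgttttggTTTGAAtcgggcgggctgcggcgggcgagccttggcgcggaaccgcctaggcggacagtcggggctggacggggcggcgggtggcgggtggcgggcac
Top2a: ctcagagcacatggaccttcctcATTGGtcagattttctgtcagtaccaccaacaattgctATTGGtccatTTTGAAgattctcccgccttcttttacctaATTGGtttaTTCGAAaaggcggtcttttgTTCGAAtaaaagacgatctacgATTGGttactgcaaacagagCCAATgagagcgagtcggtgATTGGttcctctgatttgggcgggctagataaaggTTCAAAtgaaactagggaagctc
Cdk1: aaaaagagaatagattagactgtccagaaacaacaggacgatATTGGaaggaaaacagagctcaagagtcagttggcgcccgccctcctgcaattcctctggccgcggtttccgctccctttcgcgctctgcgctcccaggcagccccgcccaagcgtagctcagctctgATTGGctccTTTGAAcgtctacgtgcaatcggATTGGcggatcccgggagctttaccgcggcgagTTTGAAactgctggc
Birc5: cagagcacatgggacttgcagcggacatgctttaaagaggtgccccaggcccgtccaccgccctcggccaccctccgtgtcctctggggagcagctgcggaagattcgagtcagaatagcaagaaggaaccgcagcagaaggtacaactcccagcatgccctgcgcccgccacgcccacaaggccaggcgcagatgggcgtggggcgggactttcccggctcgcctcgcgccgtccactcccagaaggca
The Mki67 window lay at chr7:135716380-135716629 on the minus strand, the Top2a window at chr11:99024190-99024439 on the minus strand, the Cdk1 window at chr10:69352913-69353162 on the minus strand and the Birc5 window at chr11:117848987-117849236 on the plus strand. Mki67 and Cdk1 each held 3 CCAAT and 2 CHR matches, Top2a held 6 and 4, and the Birc5 window held neither motif. No pair of matches overlapped, and GCGGGAA, an E2F-type motif searched on both strands, was found in none of the 4 windows. Other forms of E2F site were not searched, so their absence is not shown. Of all 32851 RefSeq windows of the same length, 33.8% held CCAAT, 17.1% CHR, 6.02% both and 3.82% the E2F-type motif. Among the windows of the list of G2/M genes (47 windows for 42 of 50 genes) 74.5% held CCAAT, 42.6% CHR, 36.2% both and 2.13% the E2F-type motif. Among those of the list of S phase genes (35 windows for 31 of 43 genes) the shares were 65.7%, 17.1%, 11.4% and 34.3%. A match describes the letters only and is not evidence of binding.

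Cycling barcodes made up 4.68% of the passing yap1 barcodes (95% exact binomial interval 4.06 to 5.36) and 4.19% of the passing WT barcodes (3.65 to 4.79). The intervals overlapped. Cycling barcodes were deeper than the rest, with medians of 6674 UMIs in the yap1 library and 7029 in the WT library, against 5211 and 4062 in the barcodes that were not cycling. Single cycling barcodes ran from 722 to 54925 UMIs in the yap1 library, and 515 to 85306 in the WT library. A deeper barcode reaches 3 UMIs more readily, and a barcode thinned to 2000 UMIs was cycling in 2.01% of cases in each library. The mitochondrial share was lower in cycling barcodes, with a median of 2.77% in yap1 and 3.12% in WT cycling barcodes, against 4.04% and 4.52% in the others.

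To gauge how often free RNA alone could meet the rule, post-mitotic neutrophils were counted as barcodes with at least 5 UMIs of Retnlg and at most 1 of Camp. The rule was met by 1 of 233 such barcodes in the yap1 library (0.429%) and 1 of 266 in the WT library (0.376%), at median depths of 3489 and 3216.5 UMIs. Any UMI of the 4 genes was found in 3 and 4 of them. The libraries shared 5 barcode sequences, none of them cycling. Of the barcodes with the 4% highest doublet scores, 17 in the yap1 library and 15 in the WT library were cycling, which was 8.54% and 7.32% of the cycling barcodes.

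Yap1 itself could not serve as a check of the genotype in cycling cells, since it had 9 UMIs in all yap1 cycling barcodes and 6 in all WT ones. Where in the transcript the counted reads fall is not given, so UMIs from outside the deleted part cannot be set apart. Its paralogue Wwtr1 had 15 and 12 UMIs. Lyz2, the lysozyme gene whose locus carries Cre, had 7256 UMIs in yap1 cycling barcodes and 11706 in WT ones, a ratio of 0.590, and 0.648 in the barcodes that were not cycling.

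The 4 selecting genes were not found equally, and their counts are given as a description of the choice. Birc5 had 745 UMIs in 149 of the 199 yap1 cycling barcodes and 754 UMIs in 155 of the 205 WT ones. Mki67 had 664 UMIs in 114 yap1 and 690 UMIs in 133 WT barcodes, Cdk1 had 416 in 129 and 504 in 130, and Top2a had 545 in 128 and 786 in 126. In CPM (UMIs scaled to the same total in each library), Top2a stood at 229 in yap1 and 348 in WT cycling barcodes, a ratio of yap1 over WT of 0.660 (95% interval 0.590 to 0.737). The ratio was 0.785 for Cdk1 (0.688 to 0.896), 0.916 for Mki67 (0.822 to 1.02) and 0.940 for Birc5 (0.848 to 1.04). A few cells carried much of each sum: the 5 richest barcodes held 27.9% of the yap1 and 22.5% of the WT Mki67 UMIs, and 18.3% of the yap1 and 28.8% of the WT Cdk1 UMIs.

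Most cycling barcodes lay close to the threshold. The median sum of the 4 genes was 5 UMIs in each library, and the highest was 106 in the yap1 library and 174 in the WT library. Exactly 3 UMIs, just inside, were held by 47 yap1 and 59 WT barcodes, and exactly 2, just outside, by 85 and 113. The barcodes just inside had 17.04 S phase UMIs per 10000 in the yap1 and 12.4 in the WT library, and 26.2 and 28.1 G2/M UMIs per 10000. Those just outside had 8.40 and 10.3 S phase UMIs, and 16.5 and 17.3 G2/M UMIs per 10000. At 10 UMIs or more the S phase level was 32.8 and 35.1, and the G2/M level 87.3 and 100.1, so the threshold cut through a gradient.

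**Figure D1:**
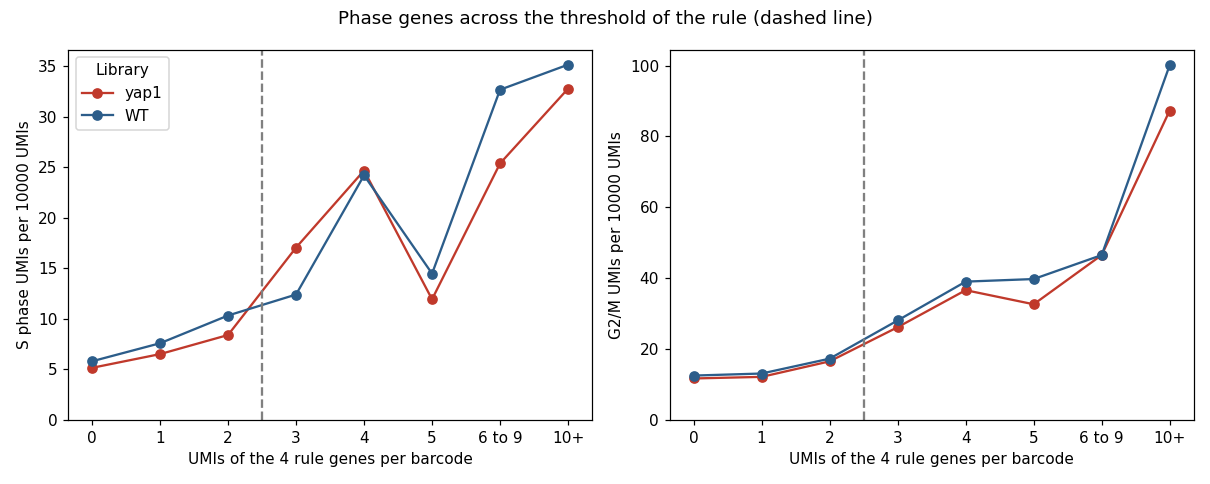
UMIs of the S phase list (left) and G2/M list (right) per 10000 UMIs, summed over the passing barcodes of each library, by the number of UMIs of the 4 rule genes per barcode (horizontal axis); the dashed line marks the threshold. From 0 to 10 or more rule UMIs the yap1 S phase level goes from 5.15 to 32.8 and the WT level from 5.797 to 35.1, with a dip at 5 UMIs, and the G2/M level from 11.7 to 87.3 in yap1 and from 12.5 to 100.1 in WT.

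Support by several genes varied. All 4 genes were found in 41 yap1 and 54 WT cycling barcodes, 3 genes in 60 and 56, 2 genes in 78 and 65, and a single gene in 20 and 30. Barcodes with a single gene had 15.0 S phase UMIs per 10000 in the yap1 and 6.95 in the WT library, against 5.36 and 6.15 in barcodes that were not cycling. Their G2/M level was 21.2 and 21.1 per 10000, against 11.9 and 12.7. The WT barcodes chosen on a single gene therefore stood little above the rest for S phase genes.

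Lineage was read from 9 genes, each present at 2 UMIs or more, with 50 UMIs required of Alb to allow for free hepatocyte RNA. At least 1 Alb UMI was found in 79 of 199 yap1 and 66 of 205 WT cycling barcodes. A barcode with 1 of the 9 genes present took that gene's class. Ly6c2 beside only Siglech, Camp or Cd3e gave the class of that other gene, and several of Clec4f, Gpnmb and Ly6c2 formed a class of their own. The Clec4f class was the largest with a lineage gene, with 56 of 199 yap1 cycling barcodes (28.1%) and 66 of 205 WT ones (32.2%). No lineage gene was present in 61 yap1 (30.7%) and 59 WT (28.8%) cycling barcodes. The other classes held 17 yap1 and 8 WT Gpnmb barcodes, 16 and 16 Ly6c2, 15 and 14 Cd3e, 15 and 10 Alb, 7 and 4 with several macrophage genes, 4 and 10 Cd79a, 2 and 4 Camp, 2 and 3 Ptprb, 1 and 3 Siglech, and 3 and 8 of mixed genes.

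The share of a class that was cycling spread over more than an order of magnitude. It was highest in the Clec4f class at these settings, with 56 of 171 yap1 barcodes (32.7%, 25.8 to 40.3) and 66 of 304 WT barcodes (21.7%, 17.2 to 26.8). Next stood the Alb class, with 15 of 54 yap1 barcodes (27.8%, 16.5 to 41.6) and 10 of 52 WT barcodes (19.2%, 9.63 to 32.5). The intervals of the Clec4f and Alb classes overlapped, and their order turned in the yap1 library at 5 UMIs of the rule genes (Alb 14.8%, Clec4f 12.3%). In the WT library it turned under the stricter cell filter (25.6% and 23.5%) and with a lineage gene present at 1 UMI (20.8% and 19.2%). Leaving aside the mixed class (3 of 57 yap1 and 8 of 82 WT barcodes, 5.26% and 9.76%) and that with several macrophage genes (7 of 133 and 4 of 87, 5.26% and 4.60%), the Camp class followed at 2 of 22 (9.09%) and 4 of 48 (8.33%), on few barcodes. Cd3e barcodes were cycling in 15 of 327 (4.59%) and 14 of 249 (5.62%), Ly6c2 barcodes in 16 of 335 (4.78%) and 16 of 343 (4.66%), and Gpnmb barcodes in 17 of 332 (5.12%) and 8 of 196 (4.08%). Their intervals overlapped one another in both libraries. Lowest were Siglech with 1 of 89 (1.12%) and 3 of 148 (2.03%), Ptprb with 2 of 259 (0.772%) and 3 of 341 (0.880%), and Cd79a with 4 of 930 (0.430%) and 10 of 1318 (0.759%). The Siglech, Ptprb and Cd79a shares lay within the intervals of the neutrophil background, which reached 2.37% in the yap1 and 2.08% in the WT library. That background rested on 1 cycling neutrophil barcode per library. Cycling Siglech barcodes had 84.7 S phase UMIs per 10000 in yap1 and 52.9 in WT, against 5.61 and 5.96 in the others of the class. Ptprb stood at 69.5 and 53.7 against 7.23 and 7.42, and Cd79a at 15.3 and 13.8 against 6.72 and 7.09. The neutrophils were shallower than the Cd3e, Ly6c2 and Gpnmb classes. For thinning to 2000 UMIs, shallower barcodes were left out and classes were read again from the thinned counts. The Cd3e class thereby went from 327 to 89 yap1 barcodes and from 249 to 73 WT barcodes. Of the thinned cycling barcodes, 43 of 74 in yap1 and 43 of 82 in WT had no lineage gene present. The part of changed classes in the thinned shares was not tested. After thinning most shares of the Cd3e, Ly6c2 and Gpnmb classes fell into the intervals of the unthinned neutrophils too. Cycling were then 0 of 89 yap1 and 1 of 73 WT Cd3e barcodes, 2 of 268 (0.746%) and 3 of 247 (1.21%) Ly6c2 barcodes, and 2 of 207 (0.966%) and 3 of 116 (2.59%) Gpnmb barcodes, of which the WT Gpnmb share alone was above its interval. Thinned Clec4f and Alb shares stayed above, with 3 of 25 Alb barcodes cycling in each library. The neutrophils themselves were not thinned and had medians of 3489 UMIs in yap1 and 3216.5 in WT. Classes thinned to 2000 UMIs were thus shallower than this background, and a comparison at equal depth was not run.

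**Figure D2:**
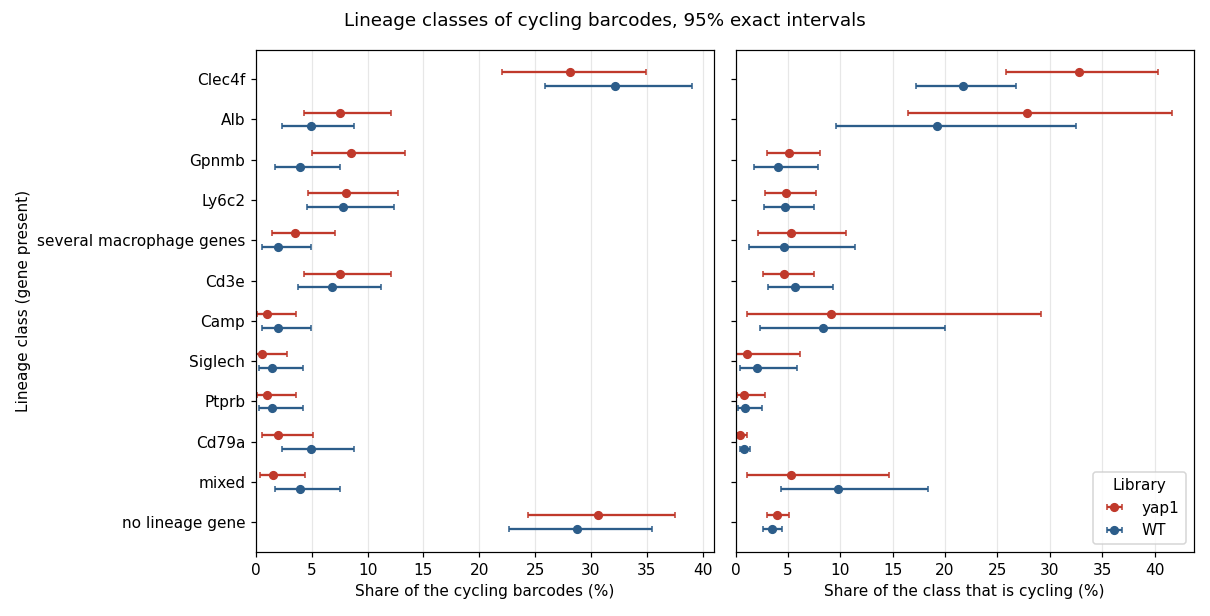
Lineage make-up of cycling barcodes, with yap1 in red above WT in blue in each row; left, each class as a percentage of the cycling barcodes of its library; right, the percentage of each class that was cycling; bars are 95% exact binomial intervals. The Clec4f class stands at 32.7% and 21.7% cycling, and the Cd79a class at 0.430% and 0.759%.

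The Clec4f difference between the libraries depended on how many UMIs were asked for. At 2 UMIs of the rule genes, 42.7% of yap1 and 28.3% of WT Clec4f barcodes were cycling, but at 5 UMIs 12.3% and 12.5%. Only barcodes with at least 2000 UMIs could be thinned to 2000, which left out 566 yap1 and 813 WT barcodes that passed. With classes read again from the thinned counts, 20 of 119 yap1 Clec4f barcodes (16.8%, 10.6 to 24.8) were cycling. In the WT library 24 of 175 were (13.7%, 8.99 to 19.7), so these are not the same sets of barcodes as before thinning. The median depth was 3141 UMIs over all yap1 and 2468 over all WT Clec4f barcodes, so depth moved with the share, and its part in the difference between libraries at 3 UMIs was not tested beyond the thinning. A stricter cell filter gave 33.3% and 23.5%, and the removal of high doublet scores 33.5% and 21.8%. In every one of these settings the Clec4f share stood above the share of all passing barcodes.

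The Clec4f barcodes carried the Kupffer cell list as well as its name gene, and are called Kupffer cell-like. Cd5l, a secreted scavenger receptor-related protein, was found in all of them, with 2570 UMIs in the 56 yap1 and 2916 in the 66 WT cycling barcodes. Marco, a scavenger receptor, had 3780 and 3608 UMIs. Vsig4, a complement receptor, had 589 UMIs in 52 of 56 and 690 in 61 of 66, and Timd4, a phosphatidylserine receptor of long-resident Kupffer cells, had 206 UMIs in 48 and 242 in 54. The summed list stood at 25371 CPM in yap1 and 20171 CPM in WT cycling Clec4f barcodes, with 9 and 8 of its 9 genes found in at least 25% of cells. The T cell list had 1 and 2 UMIs there. The mature neutrophil list had 668 and 3277 CPM.

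Cell-cycle genes outside the rule were also higher in them than in the other Clec4f barcodes. 2810417H13Rik, which is Pclaf, a PCNA-binding protein of the replication fork, had 143 UMIs (407 CPM) in yap1 and 248 UMIs (566 CPM) in WT cycling Clec4f barcodes, against 67.1 and 79.8 CPM in the Clec4f barcodes that were not cycling. S phase genes stood at 23.0 per 10000 UMIs in yap1 and 30.5 in WT cycling Clec4f barcodes, against 10.6 and 8.35 in the others. G2/M genes stood at 47.2 and 60.2 per 10000, against 15.7 and 13.7. Of the 4 rule genes Birc5 gave the largest part, 37.3% of the yap1 and 31.8% of the WT rule UMIs. The sum of the 4 genes had a median of 4 and a highest value of 26 UMIs in the yap1 class, and a median of 5 and a highest value of 89 in the WT class.

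**Figure D3:**
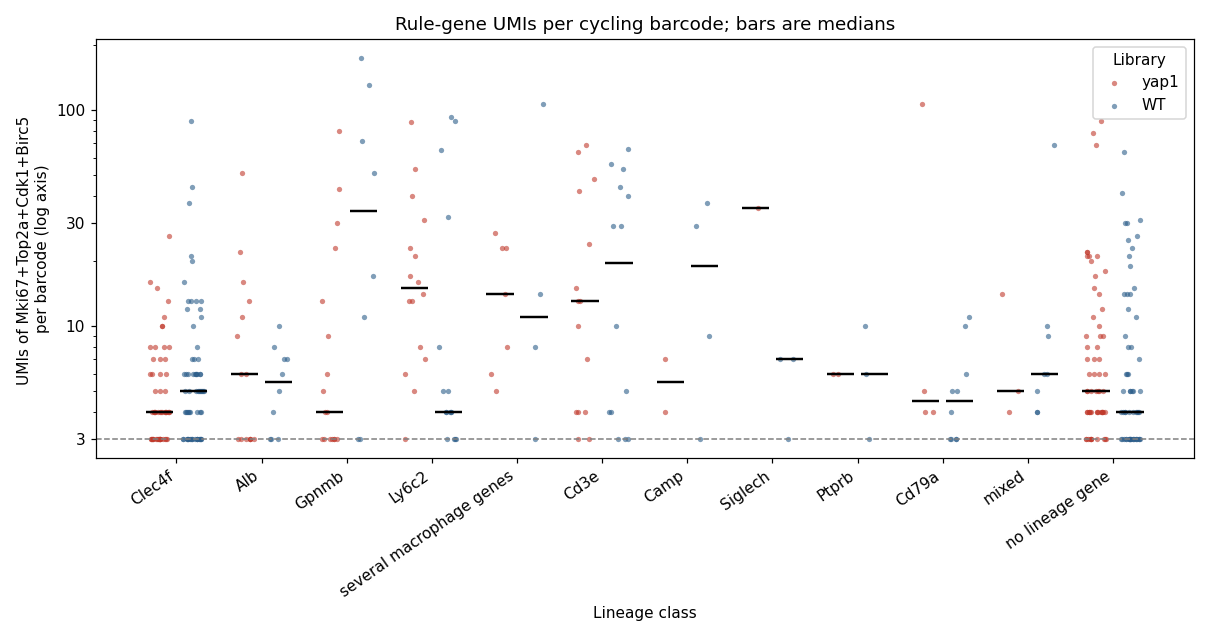
UMIs of Mki67, Top2a, Cdk1 and Birc5 summed per cycling barcode (log axis), by lineage class, with yap1 in red left of WT in blue; each point is a barcode, black bars are class medians and the dashed line is the threshold of 3. The WT Gpnmb class has a median of 34 and reaches 174, while the medians of the yap1 and WT Clec4f classes are 4 and 5.

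Cycling barcodes of the monocyte and macrophage classes were deep and few. Gpnmb encodes a glycoprotein of lipid-laden, scar-associated macrophages, and its cycling barcodes had median depths of 25114 UMIs in the yap1 and 27985.5 in the WT library. Their summed rule genes had a median of 4 UMIs and a highest value of 80 in the 17 yap1 barcodes, and a median of 34 and a highest value of 174 in the 8 WT barcodes. Exactly 3 UMIs were held by 7 of the 17 and 2 of the 8. The monocyte-derived macrophage list stood at 10225 CPM in the yap1 and 13397 CPM in the WT cycling Gpnmb barcodes. In the Ly6c2 class, named for a surface protein of inflammatory monocytes, the order of the medians was the other way round, with 15 UMIs in the 16 yap1 and 4 in the 16 WT barcodes. Birc5 gave 40.8% of the rule UMIs of the yap1 and 21.6% of those of the WT Ly6c2 class.

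Part of the Ly6c2 class carried genes of bone marrow precursors. Elane, which encodes neutrophil elastase and is made at the promyelocyte stage, had 156 UMIs in 4 yap1 and 419 UMIs in 6 WT cycling Ly6c2 barcodes. Mpo, myeloperoxidase, had 97 and 210 UMIs, and Prtn3, proteinase 3, had 457 and 791. Ms4a3, a gene of granulocyte and monocyte progenitors, had 7 and 62 UMIs, against 1 and 0 in all other Ly6c2 barcodes. Over all classes, barcodes with at least 3 UMIs of Elane, Mpo and Ms4a3 were cycling in 6 of 11 cases in the yap1 library (54.5%, 23.4 to 83.3) and 5 of 6 in the WT library (83.3%, 35.9 to 99.6). This subset was chosen after its values were seen. In the Ly6c2 class it held 3 of 16 cycling against 2 of 319 other barcodes in the yap1 library, and 4 of 16 against 0 of 327 in the WT library.

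The Camp class, named for the secondary granule peptide cathelicidin, separated by stage too. Its 2 yap1 and 4 WT cycling barcodes had 150775 and 129850 CPM of the early neutrophil list. Retnlg, a gene of mature neutrophils, had 1 UMI in the yap1 and 26 UMIs in the WT cycling Camp barcodes, against 5313 and 5569 UMIs in the 20 yap1 and 44 WT Camp barcodes that were not cycling. The mature neutrophil list was high in cycling Camp barcodes all the same, with 296853 and 353100 CPM; S100a8 and S100a9 are in that list.

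Cycling Cd3e barcodes were T cell-like, with all 7 genes of the list that the files hold found in both libraries and 3888 CPM of it in yap1 and 3514 CPM in WT. They had the highest S phase level of the larger classes, 54.5 per 10000 UMIs in the yap1 and 45.8 in the WT library, and 84.9 and 122 G2/M UMIs per 10000. Cd8a, the cytotoxic lineage coreceptor, was found in 7 of 15 yap1 and 8 of 14 WT barcodes, and Cd4, the helper coreceptor, in 8 of 15 and 5 of 14. Gzmb, granzyme B, was found in 7 of 15 and 6 of 14 cycling barcodes, against 23.7% and 25.1% of the Cd3e barcodes that were not cycling. The cycling barcodes were deeper, with medians of 12241 UMIs in yap1 and 12927.5 in WT against 7103 and 5675, and detection was not compared at equal depth. Foxp3, the regulatory T cell factor, was found in 0 and 1. Top2a gave the largest part of their rule UMIs, 38.7% in yap1 and 42.7% in WT.

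Of the 4 yap1 and 10 WT cycling Cd79a barcodes, a few carried plasma cell transcripts. Jchain, the joining chain of secreted antibody, had 1361 UMIs in the yap1 and 1911 in the WT cycling barcodes, of which single barcodes held 1256 and 1778. At least 20 UMIs of Jchain were held by 2 of 4 yap1 and 2 of 10 WT cycling barcodes, against 4 of 926 and 3 of 1308 of the Cd79a barcodes that were not cycling. These 2 WT cycling barcodes held 6 rule UMIs together, so each lay at the threshold of 3, and the 2 yap1 ones held 111. The yap1 barcode with 106 rule UMIs, the highest of that library, was in this class, and 79 of the 106 were Mki67. The Jchain limit was chosen after the values were seen. The cycling Siglech barcodes (1 yap1 and 3 WT) had 8149 and 2935 CPM of the plasmacytoid dendritic cell list, and the cycling Ptprb barcodes (2 yap1 and 3 WT) 16437 and 13599 CPM of the endothelial list.

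Cycling Alb barcodes carried other hepatocyte RNA beside Alb, which defines the class. Alb encodes serum albumin, and all 7 genes of the hepatocyte list were found in at least 25% of these barcodes, which summed to 75099 CPM in the 15 yap1 and 117282 CPM in the 10 WT barcodes. Without Alb the other 6 genes summed to 45099 CPM in yap1 and 58450 CPM in WT, against 32862 and 30194 CPM in the Alb barcodes that were not cycling. Mki67 was sparse there, with 13 of 155 rule UMIs (8.39%) in the yap1 and 3 of 56 (5.36%) in the WT class. Birc5 gave 41.9% and 60.7%, and Cdk1 31.0% and 30.4%. S phase genes stood at 30.1 per 10000 UMIs in the yap1 and 13.01 in the WT cycling Alb barcodes, against 5.90 and 6.54 in the other Alb barcodes. G2/M genes stood at 83.6 and 63.5, against 25.2 and 11.5. Single barcodes weighed on the yap1 levels. One yap1 barcode held 189 S phase UMIs against a class median of 7, while the WT highest was 13 against a median of 5.5. The highest rule sum was 51 of the 155 yap1 UMIs, and 7 of the 15 yap1 barcodes held exactly 3. The mitochondrial share of cycling Alb barcodes was low, with medians of 0.185% and 0.913%, against 1.62% and 4.29% in the other Alb barcodes.

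**Figure D4:**
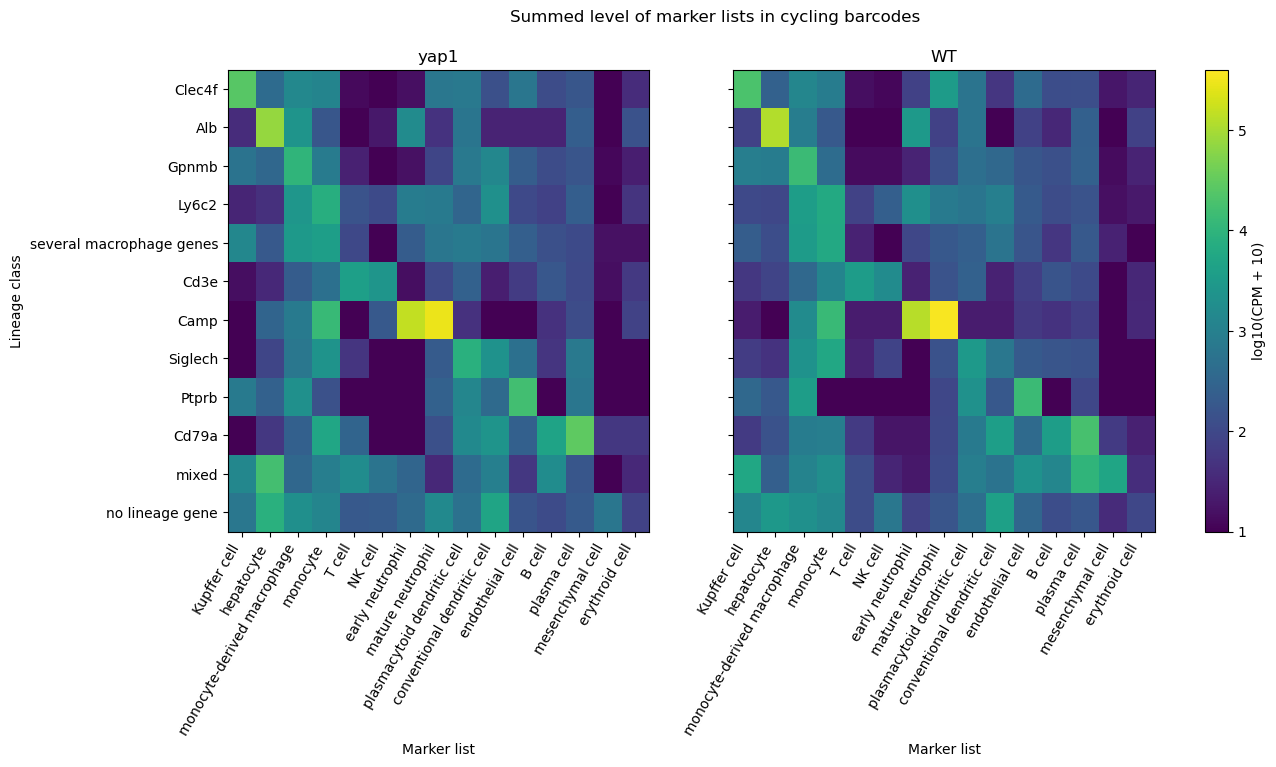
Summed level of 15 marker lists (columns) in the cycling barcodes of each lineage class (rows), as log10 of CPM + 10, in the yap1 library (left) and the WT library (right); brighter is higher. The Kupffer cell list is brightest in the Clec4f class (25371 CPM in yap1 and 20171 in WT) and the hepatocyte list in the Alb class (75099 and 117282 CPM).

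Barcodes with no lineage gene formed a class as large as the Clec4f class but of mixed content. In a division made after the values were seen, only list genes found in under 10% of all passing barcodes, both libraries together, were counted. The others are the barcodes of this class that were not cycling. At least 2 UMIs of such hepatocyte genes (Apoa1, Serpina1c, Fabp1, Cps1) were held by 18 of 61 yap1 (29.5%) and 7 of 59 WT (11.9%) cycling barcodes, against 5.66% and 7.02% of the others. Kupffer cell genes were held by 9 (14.8%) and 12 (20.3%), against 2.83% and 5.58% of the others. Conventional dendritic cell genes were held by 8 (13.1%) and 7 (11.9%), against 7.82% and 8.10%, and plasma cell genes by 6 (9.84%) and 6 (10.2%), against 3.64% and 3.42%. Mature neutrophil genes (Cxcr2 and Mmp9) were held by 3 (4.92%) and 0, against 24.1% and 16.7% of the others. No list was held by 18 and 20. Between 10 and 49 Alb UMIs, under the limit of the Alb class, were found in 15 (24.6%) and 6 (10.2%), against 2.16% and 3.84% of the others.

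Phase was described by the share of G2/M UMIs among the UMIs of the S phase list (43 genes) and the G2/M list (50 genes), neither of which holds a rule gene. Of the cycling barcodes with at least 10 such UMIs, 136 of 197 in the yap1 library (69.0%, 62.1 to 75.4) and 139 of 198 in the WT library (70.2%, 63.3 to 76.5) were over 60% G2/M. Under 40% were 21 yap1 (10.7%) and 18 WT (9.09%) barcodes, and 40 and 41 lay between. Within 5 points of a limit were 42 and 48 barcodes. Over all classes the same share did not set cycling barcodes apart, since 72.7% of the yap1 and 69.1% of the WT barcodes that were not cycling were also over 60%. In the Clec4f class it was 69.6% of yap1 and 73.8% of WT cycling barcodes, against 48.98% and 61.9% of the others with 10 such UMIs. The levels of both lists were higher in cycling barcodes. Summed over barcodes, S phase genes stood at 27.2 per 10000 UMIs in yap1 and 27.6 in WT cycling barcodes, against 5.36 and 6.15 in the others, and G2/M genes at 62.2 and 68.4, against 11.9 and 12.7.

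By class, over 60% G2/M were 39 of 56 yap1 and 48 of 65 WT Clec4f barcodes, 14 of 16 and 9 of 16 Ly6c2, 9 of 17 and 5 of 8 Gpnmb, 6 of 15 and 11 of 14 Cd3e, and 10 of 14 and 8 of 8 Alb barcodes. Under 40% were 6 of the 17 yap1 and 1 of the 8 WT Gpnmb barcodes, and none of the Cd3e or Alb barcodes with 10 phase UMIs. The 4 WT Camp barcodes had between 91.2% and 98.5% G2/M UMIs, and the yap1 pair 49.8% and 83.3%. Camp barcodes that were not cycling also held mostly G2/M UMIs, so a high share did not set the cycling ones apart. They had 20.8 G2/M against 0.732 S phase UMIs per 10000 in yap1, and 17.2 against 1.33 in WT. In the Siglech class the single yap1 barcode had 210 S phase UMIs and 43.1% G2/M, and the WT barcodes 32.6%, 38.9% and 82.1%.

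**Figure D5:**
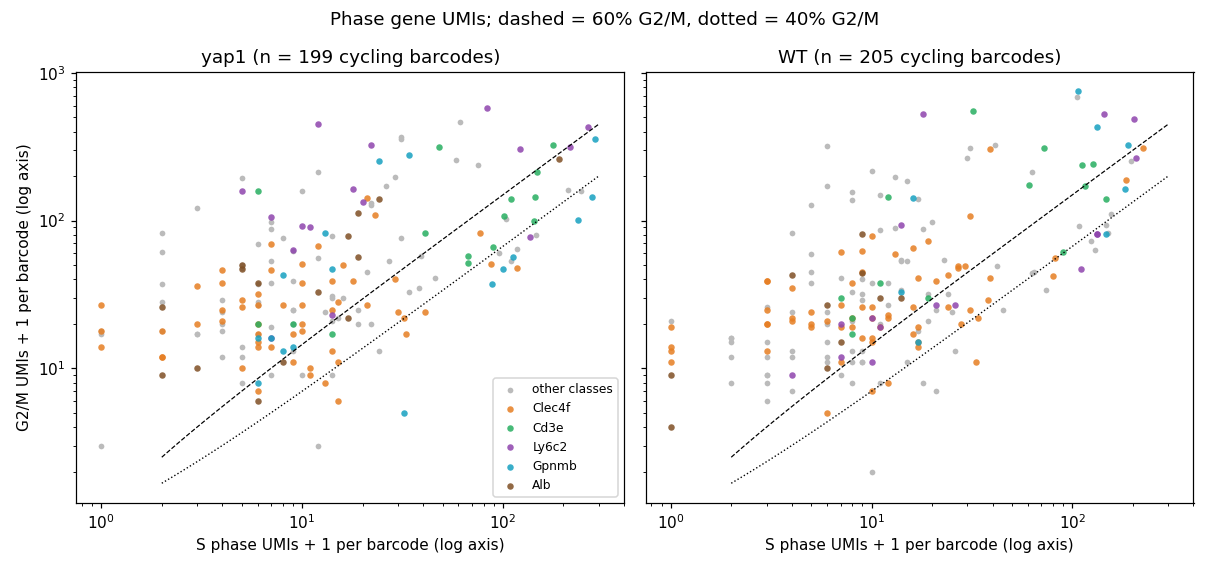
S phase UMIs (horizontal) against G2/M UMIs (vertical) per cycling barcode, each plus 1 on log axes, in the yap1 library (left, n = 199) and the WT library (right, n = 205), coloured by lineage class; above the dashed line a barcode is over 60% G2/M, below the dotted line under 40%. In each panel more points lie above the dashed line (136 in yap1 and 139 in WT) than below the dotted line (21 and 18).

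The rule, built on genes of late S phase to mitosis, leaves out cells with S phase transcripts alone. At least 10 UMIs of the S phase list were held by 453 yap1 and 382 WT barcodes, of which 102 (22.5%) and 107 (28.0%) were cycling. No UMI of the 4 rule genes was found in 275 and 193 of them. Those that were not cycling were deep, with medians of 17375 and 14598 UMIs, and their S phase level was 8.14 and 10.96 per 10000, against 33.7 and 34.7 in those that were cycling.

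The 4 rule genes included, 122 of 5792 genes with enough UMIs (2.11%) stood at least 2-fold higher in cycling than in other barcodes of the Clec4f class and of the class with no lineage gene, in both libraries. Folds have 1 UMI added to each side. Without the 4 rule genes there were 118, of which 84 were in the cell-cycle lists, which held 158 of the genes compared. Outside the lists the highest were Iqgap3, a scaffold protein (7.67-fold to 14.5-fold), Pbk, a mitotic kinase (6.50-fold to 16.8-fold), 2810417H13Rik (5.86-fold to 44.1-fold) and Melk, a kinase of proliferating cells (5.03-fold to 14.4-fold). At least 2-fold lower in all 4 were 8 of the 5792 genes (0.138%), among them Slpi, Ccr1, Cxcl2, Cxcr2 and Mmp9, which are genes of neutrophils and inflammatory cells. Most of these had few UMIs in cycling Clec4f barcodes: Slpi 3 in yap1 and 9 in WT, Ccr1 3 and 2, Cxcr2 and Mmp9 each 3 and 4. In the class with no lineage gene, 24.1% of yap1 and 16.7% of WT barcodes that were not cycling held at least 2 UMIs of Cxcr2 and Mmp9. The part of this cell mix in the folds was not tested. Cxcl2, a neutrophil-attracting chemokine, had 267 CPM in yap1 and 315 CPM in WT cycling Clec4f barcodes, against 862 and 940 CPM in the others. These folds compare sets chosen on cycling transcripts and describe the choice.

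Between the libraries, 10103 genes had at least 20 UMIs in cycling barcodes. More than 1.5-fold higher in yap1 were 1061 of these genes (10.5%), and more than 1.5-fold lower 884 (8.75%). The S phase list was balanced, with 23 of 42 genes higher, 3 of them past 1.5-fold, 2 genes lower past it, and a median log2 ratio of 0.02, or -0.20 with cells weighted equally. The G2/M list was lower in 37 of 50 genes, with 2 past 1.5-fold lower and none higher, and a median log2 ratio of -0.19, against -0.01 over all genes. Barcodes that were not cycling had a median of -0.15 for the S phase and -0.16 for the G2/M list. Genes of the spindle checkpoint and mitotic kinases had a median of -0.29, with 21 of 28 lower and 4 past 1.5-fold. Mitotic kinesins and cytokinesis genes had -0.27, with 16 of 21 lower and 3 past 1.5-fold. Origin licensing and replication fork genes had 0.13, with 23 of 34 higher and 2 past 1.5-fold.

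Single mitotic genes spread around these medians. Cenpf, a kinetochore protein, had 166 UMIs in yap1 and 296 in WT cycling barcodes (ratio 0.534, 0.438 to 0.647), and 0.965 in barcodes that were not cycling. Prc1, which bundles the microtubules of the central spindle, had 127 and 215 UMIs (ratio 0.562), and 0.482 in the others. Ube2c, which works with the anaphase-promoting complex, had 760 and 936 UMIs (0.772), whereas Ccnb2, a mitotic cyclin, had 409 and 344 (1.13, 0.978 to 1.31). Hmgb2, an abundant chromatin protein of dividing cells, had 4068 and 3919 UMIs (0.988, 0.945 to 1.03). Among S phase genes, Pcna, the sliding clamp, had 497 and 623 UMIs (0.759), and Rrm2, the ribonucleotide reductase subunit, 337 and 383 (0.837). Mcm4, of the replicative helicase, had 149 and 97 UMIs (1.46), and Hells, a chromatin remodeller, 146 and 91 (1.53). Hells turned to 0.369 when barcodes were thinned to 2000 UMIs.

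CDK inhibitors and p53 targets were lower in 10 of 13 measured genes, 2 of them past 1.5-fold, with a median log2 ratio of -0.34, and -0.26 in the barcodes that were not cycling. Cdkn1a (p21), which halts the cycle after DNA damage, had 254 UMIs in 64 yap1 and 445 UMIs in 78 WT cycling barcodes, a ratio of 0.543 (0.464 to 0.635), against 0.800 in the others. Cdkn1b (p27) had 161 and 227 UMIs (0.675, against 0.885 in the others). Cdk6, the kinase of the early cell cycle, had 102 and 166 (0.585). Replication-dependent histones had a median of 0.07 and single cells weighed heavily on them. Hist1h1b had 136 and 207 UMIs (0.625), with 50.7% of the yap1 UMIs in 5 barcodes, and Hist1h2ap had 896 and 554 (1.54), with 50.0% in 5 barcodes. Histone genes are near-identical copies, so reads of one may be counted for another.

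Granulocyte and hepatocyte genes differed further between the libraries. Genes of early granulocytes were lower in 13 of 14 genes, 10 of them past 1.5-fold, against 8.75% of all genes. Their median log2 ratio was -1.24 in cycling and -0.61 in other barcodes. The 4 WT against 2 yap1 Camp barcodes stand beside this, and 5 barcodes held 100% of the yap1 and 99.8% of the WT Camp UMIs. In the Gpnmb and/or Ly6c2 barcodes 8 of 9 measured genes were lower, and in the Clec4f class the 1 measured. In the class with no lineage gene the 1 measured gene was higher (2.79), with list sums of 199 UMIs in yap1 and 26 in WT. Hepatocyte genes were higher in 15 of 18, 12 of them past 1.5-fold, against 10.5% of all genes. Their median was 1.01 in cycling barcodes and -0.62 in the others. The classes differed: the median was 1.62 in cycling barcodes with no lineage gene, 0.32 over 5 measured genes in the Clec4f class, and -2.20 in the Gpnmb and/or Ly6c2 barcodes, where 7 of 9 measured genes were lower and the list summed to 643 CPM in yap1 and 961 CPM in WT. Gsta3, a glutathione transferase, had 598 UMIs in 40 yap1 and 144 UMIs in 20 WT cycling barcodes, a ratio of 3.95 against 0.491 in the others. Krt8, a keratin of hepatocytes and bile duct cells, had 225 and 37 UMIs (5.79, against 0.595 in the others), and 5 barcodes held 69.3% of the yap1 UMIs. The 15 yap1 and 10 WT Alb barcodes, and the 18 and 7 barcodes with hepatocyte genes in the class with no lineage gene, move with this list, and their part in it was not tested.

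Several further lists are set beside all genes, of which 10.5% were higher and 8.75% lower past 1.5-fold. Cyclins and their kinases were higher in 7 of 14 genes, and genes of nucleotide synthesis, which make the building blocks of DNA, were higher in 11 of 19, with a median log2 ratio of 0.03. DNA repair genes were lower in 11 of 20 (-0.07), 3 of them past 1.5-fold. Genes of condensin, cohesin and chromatin, which fold and hold chromosomes, were lower in 19 of 27 (-0.15). The E2F, RB and DREAM regulators of cell-cycle transcription were lower in 12 of 17 (-0.18). Among these 5 lists at most 3 genes of a list were past 1.5-fold in a direction. Genes of quiescence and lineage arrest were lower in 15 of 19 (-0.26), none past 1.5-fold lower. Immediate early genes, which respond to stress and growth factors within minutes, were lower in 9 of 13 (-0.29), 2 of them past 1.5-fold.

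Some of the largest ratios were as large outside cycling barcodes or lay in single cells. Wdr89 had 210 UMIs in yap1 and 1486 in WT cycling barcodes (0.134) and Nme2 had 80 and 565 (0.135), but the ratios in barcodes that were not cycling were 0.118 and 0.117. Nme2 has a near-identical copy, so its counts are uncertain. Saa3, an acute-phase protein, had 4133 UMIs in yap1 and 67 in WT cycling barcodes, with 99.7% of the yap1 UMIs in 5 barcodes, and the ratio turned to 0.386 without the highest doublet scores. Mmp12, macrophage elastase, had 15 UMIs in yap1 and 404 in WT cycling barcodes, with 98.5% of the WT UMIs in 5 barcodes. A list of YAP/TEAD targets and pathway members had a median log2 ratio of -0.34 in cycling and -0.21 in other barcodes. Of 13 genes measured in cycling barcodes 11 were lower, 2 of them past 1.5-fold, and 1 gene was higher past it. Over all genes 8.75% were lower and 10.5% higher past 1.5-fold. In the cycling Clec4f barcodes the median was 0.03, with 2 of 4 measured genes higher and summed levels of 634 CPM in yap1 and 505 CPM in WT.

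Within the cycling Clec4f barcodes 4869 genes had at least 20 UMIs, of which 11.7% were more than 1.5-fold higher and 14% more than 1.5-fold lower in yap1. Both phase lists were lower. Of the S phase genes 21 of 28 measured were lower, 12 past 1.5-fold and 1 higher past it, with a median log2 ratio of -0.50. Of the G2/M genes 37 of 44 were lower, 16 past 1.5-fold and none higher past it, with a median of -0.40. Over all genes of the class the median was -0.01, and in the Clec4f barcodes that were not cycling the medians were 0.17 and 0.22. Genes under 20 UMIs are not covered, so the counts refer to measured genes and not to whole lists. Without the 5 barcodes of each library with most rule UMIs the medians were -0.39 and -0.28. At 2 UMIs of the rule genes they were -0.30 and -0.21, with 18 of 30 S phase and 30 of 46 G2/M genes lower. After thinning the G2/M median was -0.22 over the 7 genes left.

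Among single genes of the cycling Clec4f barcodes, Pcna had 87 UMIs in the yap1 and 188 in the WT class (ratio 0.576, 0.442 to 0.747) and Rrm2 had 46 and 117 (0.490, 0.340 to 0.694). Cdk1, which the rule used and which is given as a description, had 62 and 143 UMIs, a ratio of 0.540 that turned to 1.05 when barcodes were thinned. Lyz2 had 775 and 2535 UMIs (0.381, 0.351 to 0.413), close to 0.355 in the Clec4f barcodes that were not cycling. Fcna, a ficolin of Kupffer cells, had 400 and 271 UMIs (1.84, 1.57 to 2.15), against 1.18 in the others, and Cdh5, a cadherin known from endothelium, had 188 and 119 (1.97, 1.56 to 2.50), against 1.13. Atp1b3, a subunit of the sodium pump, had 322 and 163 UMIs (2.46, 2.03 to 2.99), with 60.9% of the yap1 UMIs in 5 barcodes, and 1.58 without the 5 barcodes with most rule UMIs.

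The phase lists differed otherwise in the remaining large classes. In the class with no lineage gene, where 16% of 6039 genes were past 1.5-fold higher and 18.2% lower, the S phase median was -0.40, with 25 of 32 genes lower and 12 past 1.5-fold. The G2/M median there was 0.20, with 29 of 46 genes higher and 4 past 1.5-fold. In the Gpnmb and/or Ly6c2 barcodes pooled (37 yap1 and 28 WT, a grouping made after the values were seen), 9.38% of 7156 genes were past 1.5-fold higher and 14.8% lower. The S phase median was -0.12 and the G2/M median -0.39, with 42 of 48 genes lower and 21 past 1.5-fold. No test of the difference between classes is possible with 1 library each.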

How the data were processed

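Droplet RNA counts of 2 libraries, yap1 and WT, were used. The deposited values are whole-number counts (UMIs) per gene and barcode, per the file headers, with 27998 gene IDs, of which 121 share a symbol. Per the submitters' processing notes, mm10 was the build; Seurat and Bowtie 0.12.2 are named there without a role. The counting program, annotation, strand, droplet chemistry and choice of barcodes are not given in the sources used here. No deposited column was left out (0).

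Library totals were 34234353 UMIs (yap1) and 30386545 UMIs (WT). Barcodes with at least 500 UMIs and at most 20% mitochondrial UMIs were kept. Cycling barcodes held 3 UMIs of the 4 rule genes, and those counts are only described. UMIs were summed over cycling barcodes and given as CPM. Genes with at least 20 UMIs in both libraries together were compared, and called means past 1.5-fold. Shares have exact Clopper-Pearson intervals and ratios exact conditional binomial intervals, all at 95%. UMIs of one cell are not independent, so these are too narrow. Replicates do not exist, and no test was run. Doublets were not removed in the values given; Scrublet scores served an alternative. Ahsp, Trac and Trbc2 were not found in the files.

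The members and lists were chosen with earlier results of these data known. Named genes were the rule and lineage genes, Yap1, Wwtr1 and Lyz2, up to 4 most abundant and up to 3 most changed genes with at least 50 UMIs of each list, among genes of 200 UMIs or more the 8 at each end (3 within a class) by the interval bound nearest to 1, and up to 10 genes per direction that differed at least 2-fold between cycling and other barcodes. Elane, Mpo, Ms4a3, Prtn3, Jchain, Retnlg, Cd8a, Cd4, Gzmb, Foxp3 and the subsets made from them were added after their values were seen. A gene that this naming rule selects from the lists is not reported here. Promoters came from RefSeq (GRCm38.p6). The calculations were tested on simulated data. Software was scanpy 1.11.5, matplotlib 3.10.9, pandas 2.3.3, scipy 1.17.1 and numpy 2.4.6 under Python 3.11.15.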

Additional observations from a re-analysis of the deposited data

How the results depend on the processing

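No paired analysis was possible because each genotype had 1 library. Of 104 values of main results under alternatives, 69 stayed within the counting interval of the reported share or summed ratio, or, for counts of genes, within 1.5 times, and 35 did not. The cycling share was 6.68% in yap1 and 6.50% in WT at 2 UMIs, 2.63% and 2.37% at 5, and 2.01% in both after thinning to 2000 UMIs. Of Clec4f barcodes 42.7% and 28.3% were cycling at 2 UMIs, 12.3% and 12.5% at 5, and 16.8% and 13.7% after thinning. At 5 UMIs the Clec4f class made up 18.8% of yap1 and 32.8% of WT cycling barcodes. The share over 60% G2/M was 80.0% in yap1 after thinning. With wider phase limits (1/3 and 2/3), G2/M-weighted barcodes were 61.9% in yap1 and 58.6% in WT. Genes past 1.5-fold higher numbered 343 after thinning, 262 with at least 100 UMIs per gene and 2082 with 1 UMI in each library, and lower 390, 262 and 1671, and 1583 with cells weighted equally. Past 1.5-fold, 10.5% of genes were higher and 8.75% lower as reported, 13.9% and 15.8% after thinning, and 14.01% and 15.67% with equal weights. The S phase median was -0.075 at 5 UMIs, -0.38 thinned and -0.20 with equal weights. The G2/M median was -0.050 at 2 UMIs, -0.24 at 5, -0.034 thinned, -0.23 without the Alb barcodes, -0.10 with equal weights, -0.28 with 1 class mix, -0.16 by the median of ratios and by the restricted total, and -0.23 with at least 100 UMIs. All these G2/M medians were negative, but over all genes the median was -0.036 at 2 UMIs and -0.036 thinned, so that in those settings the list lay close to all genes.

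Ratios crossed 1 after thinning for Hells (0.369), and in the Clec4f class for Cdk1 (1.05), Prc1 (1.80), Cdkn1b (2.40) and Hist1h2ap (1.20). Hist1h2ap also crossed with a lineage gene at 1 UMI (1.32) and without the 5 barcodes with most rule UMIs (1.45), and Saa3 without the highest doublet scores (0.386). The cause was not tested. The S phase list in the Clec4f class had no value after thinning, because too few genes reached 20 UMIs. The phase genes restricted to those at 5-fold in cycling barcodes (27 and 35 genes), the single barcodes left out and the removal of Alb barcodes were chosen after seeing the data.

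The Siglech, Ptprb and Camp classes held at most 4 cycling barcodes per library, which their intervals show. At a depth of 2000 UMIs, 74 yap1 and 82 WT barcodes met the rule. An interval over barcodes covers neither mice nor libraries.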
